A study of Rattus norvegicus with 6 samples.

Results

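The mRNA signals of 8 genes of chloride secretion and chloride handling, Slc12a2, Cftr, Ano1, Gabrp, Clcn3, Clic1, Clic4 and Clic5, were examined in kidneys of Han:SPRD rats. Cy/+ rats are heterozygous for a missense mutation in Anks6 and develop slowly progressing cystic kidneys, and their wild-type +/+ counterparts served as controls. Whole kidney RNA samples from male rats, 3 labelled Cy/+ and 3 labelled +/+ with no treatment given, were hybridised to rat oligonucleotide arrays, 1 array per sample. The sample labels give an age of 10 weeks, whereas the methods of the study give 5 weeks. The samples are numbered 1 to 3 within each genotype. Whether they came from separate rats is not given in the sources used here, so the p-values reflect only how these samples vary, and part of that may be technical. The 8 genes are members of a set of 10645 genes with a measurable probe set, that is, one whose mean log2 signal over the 6 arrays reached the 40th percentile of all probe sets (a signal of 77.8). They were chosen by their role in cyst fluid secretion and with their Cy/+ to +/+ difference already known. Their own values are therefore given as a description, with no p-value.

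Cyst fluid collects because the epithelium lining a cyst secretes chloride, and sodium and water follow. The sodium-potassium-chloride cotransporter NKCC1, encoded by Slc12a2, loads chloride into the cell across the basolateral membrane, and the sodium pump and potassium channels keep up the driving force. Chloride then leaves at the apical membrane through CFTR, a channel opened by cAMP-dependent phosphorylation, or through ANO1, a channel opened by calcium.

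The sequence just upstream of the transcription start is given for 4 of the 8 genes, since 3 of them (Slc12a2, Ano1 and Clcn3) had higher signals in Cy/+ kidneys and Cftr had a lower one. RefSeq held such a window for 6 of the 8 genes (7 windows, since Clcn3 has more than 1 start), all on the assembly GRCr8. Each is 250 bases long, runs 5′ to 3′ on the strand of the gene and ends at the base before the start. Both strands were searched for GGGCGG (the GC box), TGACGTCA (the full cAMP response element), TGACG (its shorter form, which the full element contains) and TATAAA (the TATA box). Capitals mark the matches, on either strand. The Slc12a2 window lies at chr18:53546083-53546332 (plus strand), that of Cftr at chr4:47527379-47527628 (plus strand), that of Ano1 at chr1:209329339-209329588 (minus strand) and the first of Clcn3 at chr16:34137754-34138003 (plus strand).
Slc12a2: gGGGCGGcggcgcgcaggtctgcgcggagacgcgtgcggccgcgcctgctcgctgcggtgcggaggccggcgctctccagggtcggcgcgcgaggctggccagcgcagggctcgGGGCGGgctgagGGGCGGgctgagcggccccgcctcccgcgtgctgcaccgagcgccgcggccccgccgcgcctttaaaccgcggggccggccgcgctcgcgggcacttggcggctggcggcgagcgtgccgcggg
Cftr: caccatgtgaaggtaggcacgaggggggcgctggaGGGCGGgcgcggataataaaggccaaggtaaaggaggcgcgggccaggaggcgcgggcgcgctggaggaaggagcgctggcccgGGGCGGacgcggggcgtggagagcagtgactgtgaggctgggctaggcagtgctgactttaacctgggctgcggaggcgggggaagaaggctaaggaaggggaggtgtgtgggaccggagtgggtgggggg
Ano1: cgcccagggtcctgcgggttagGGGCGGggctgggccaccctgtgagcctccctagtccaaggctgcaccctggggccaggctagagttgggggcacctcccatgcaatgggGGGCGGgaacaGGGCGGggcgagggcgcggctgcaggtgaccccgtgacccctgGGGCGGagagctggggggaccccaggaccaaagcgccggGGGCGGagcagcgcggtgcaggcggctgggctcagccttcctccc
Clcn3: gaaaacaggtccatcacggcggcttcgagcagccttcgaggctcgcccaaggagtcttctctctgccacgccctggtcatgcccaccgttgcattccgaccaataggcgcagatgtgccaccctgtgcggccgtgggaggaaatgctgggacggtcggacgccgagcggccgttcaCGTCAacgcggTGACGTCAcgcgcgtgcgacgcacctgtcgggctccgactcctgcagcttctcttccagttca
GGGCGG occurred 3 times in the Slc12a2 window, 2 times in that of Cftr and 5 times in that of Ano1, and 30.5% of all 33469 windows of the table held it. The Clcn3 window held no GGGCGG but 1 TGACGTCA, found in 1.59% of all windows, and TGACG at 3 places, 2 of which are the strands of that full element. The other Clcn3 window, at chr16:34165294-34165543, held none of the 4 motifs. TGACG was found in 18.2% of all windows and TATAAA in 12.9%, and no TATAAA was found in these 4. The matches describe letters in these windows only.

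Of the 8 genes, 5 (Slc12a2, Ano1, Gabrp, Clcn3 and Clic1) had a signal on every Cy/+ array above that on every +/+ array. The count is 1 when arrays are scaled to the hybridization controls and 4 when the probe sets of each gene are averaged. Cftr lay below on every Cy/+ array, and Clic4 and Clic5 overlapped between the genotypes. Over all 10645 genes, 41.5% lay above and 33.1% below in the same way. In limma's comparison (Benjamini-Hochberg adjusted over all 18625 tested probe sets, threshold 0.05), which called 37.4% of all genes higher and 29.3% lower in Cy/+, the same 5 genes passed as higher and Cftr as lower. The genes were chosen with this contrast known, and Ano1 and Cftr reached the test only through the genotype in which they are brighter, so nothing is read from these counts. The median log2 difference of the 8 genes, Cy/+ minus +/+, was 0.92, against 0.090 over all genes, and nothing is read from it either. It takes the brightest probe set of each gene. With probe sets averaged, Clcn3 went from 0.88 to 0.21 and Clic4 from -0.14 to -1.77. In whole kidney, fewer cells of a type and less RNA per cell cannot be told apart.

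**Figure D1:**
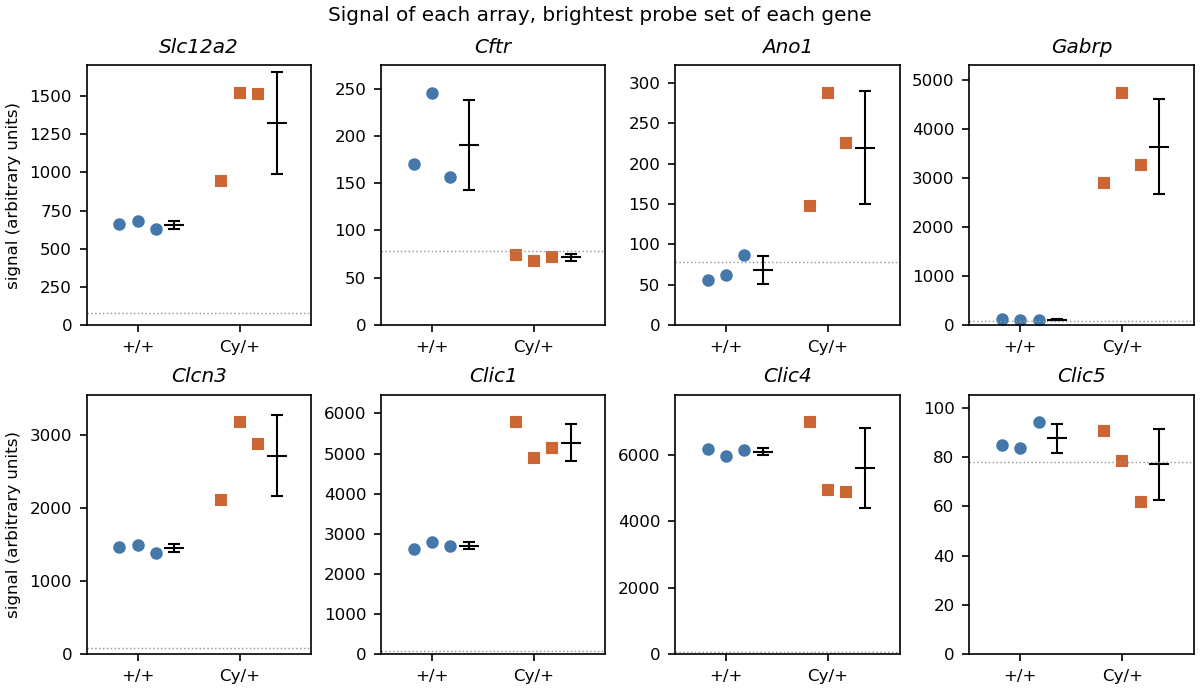
Signal of the brightest probe set of each of the 8 genes on each array, on a linear axis from 0 in arbitrary units. Circles are the 3 +/+ arrays, squares the 3 Cy/+ arrays, the bars give the mean ± SD, and the dotted line is the signal of 77.8 at which probe sets were tested. Gabrp goes from 109 to 3628 on average, Cftr lies under the dotted line on all 3 Cy/+ arrays, and the Cy/+ arrays are spread more widely than the +/+ arrays in every gene but Cftr on the log2 scale. Scaled to the hybridization controls, Slc12a2, Clcn3 and Clic1 would no longer be higher in Cy/+, and Ano1 would overlap between the genotypes.

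The arrays of the 2 genotypes differed in controls as well as in kidney transcripts. All 18 hybridization spike-in probe sets were brighter on every Cy/+ array, by a median of 1.83-fold, and all 24 poly-A spike-in probe sets by 3.82-fold. The 3′ to 5′ signal ratio of Actb, which is raised when RNA is degraded or labelled incompletely, was 3.22 ± 0.26 in Cy/+ and 1.51 ± 0.0057 in +/+ (SD, n = 3), and that of Gapdh was 1.85 ± 0.10 and 1.18 ± 0.036. The part of these differences in the results below was not tested. Had the arrays been scaled to the hybridization controls, every log2 difference would be lower by 0.98, and the median of all genes would be -0.89. Differences relative to the median of all genes do not change with that scaling, but the direction of a gene with a difference between 0 and 0.98 turns. Pairs of +/+ arrays correlated at 0.997 or more and pairs of Cy/+ arrays at 0.982 to 0.990 (Pearson r over probe sets, which are not independent).

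Slc12a2, the cotransporter that loads chloride, had signals of 660, 681 and 629 on the +/+ arrays and of 941, 1520 and 1512 on the Cy/+ arrays. The Cy/+ arrays all lay above the +/+ arrays, with Cy/+ 1 nearest to them and the other two almost equal. The means were 657 ± 26.0 in +/+ and 1324 ± 332 in Cy/+ (SD, n = 3), a log2 difference of 0.98 (SE 0.19) or 1.97-fold, which was -0.0030 when scaled to the hybridization controls. Without Cy/+ 1 the log2 difference was 1.21.

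Cftr, the cAMP-activated apical channel, was the 1 gene of the 8 with lower signals on all Cy/+ arrays. The +/+ signals were 170, 246 and 156 and the Cy/+ signals 74.2, 67.5 and 72.4. The groups lay apart, and all Cy/+ signals were under the 77.8 at which probe sets were tested, so that Cftr reached the test only through its +/+ arrays. Its mean was 191 ± 48.0 in +/+ and 71.4 ± 3.48 in Cy/+ (SD, n = 3), a log2 difference of -1.39 (SE 0.17). The geometric +/+ mean was 2.40 times the testing signal. The +/+ 2 array stood above the other +/+ arrays, and without it the log2 difference was -1.19. Detection calls were not used here, so it cannot be said whether Cftr was detected in Cy/+ kidneys.

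Ano1, the calcium-activated chloride channel also known as TMEM16A, had signals of 55.5, 61.6 and 87.3 on the +/+ arrays and of 147, 288 and 225 on the Cy/+ arrays. The groups lay apart, and the gene reached the test through its Cy/+ arrays, as the +/+ mean of 68.2 ± 16.9 was under the testing signal. The Cy/+ mean was 220.1 ± 70.5 (SD, n = 3), with a log2 difference of 1.67 (SE 0.27). The geometric Cy/+ mean was 2.72 times the testing signal. Scaled to the hybridization controls, the log2 difference was 0.68 and the Cy/+ arrays overlapped the +/+ arrays, while that of Cftr was -2.37.

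Gabrp, which encodes the pi subunit of the GABA-A receptor, a ligand-gated chloride channel, had the largest difference of the 8 genes. Its brighter probe set gave 117, 108 and 102 on the +/+ arrays and 2902, 4725 and 3256 on the Cy/+ arrays. The lowest Cy/+ array was far above the highest +/+ array, and the means were 109 ± 7.89 and 3628 ± 967 (SD, n = 3), a log2 difference of 5.03 (SE 0.18) or 32.6-fold. The other Gabrp probe set gave 30.0, 23.8 and 24.1 in +/+ and 232, 495 and 315 in Cy/+, with the arrays in the same order among Cy/+. There the +/+ mean was below the testing signal, the geometric Cy/+ mean was 4.25 times that signal, and the log2 difference was 3.68 (SE 0.27). The subunits with which a GABA-A receptor is assembled did not show such signals. Of the 15 other subunits with a probe set, 14 had means of 15.7 to 68.2 in both genotypes, all under the testing signal. The exception, Gabrd, was lower in Cy/+ by limma (log2 difference -0.43, SE 0.095, Benjamini-Hochberg adjusted p = 0.00575). The Gabrd probe set can bind several transcripts.

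Clcn3 encodes ClC-3, a chloride-proton exchanger of endosomes and vesicles, and its 4 probe sets did not move together. The brightest gave 1471, 1486 and 1390 in +/+ and 2102, 3170 and 2869 in Cy/+, all Cy/+ arrays above, with means of 1449 ± 51.6 and 2714 ± 551 (SD, n = 3). The log2 difference was 0.88 (SE 0.15), or -0.097 when scaled to the hybridization controls. The second probe set was also higher on all Cy/+ arrays, with signals of 1369, 1973 and 1865 against 1277, 1289 and 1224, and a log2 difference of 0.44 (SE 0.14), which turns negative with that scaling. The third overlapped between the genotypes (log2 difference -0.068, SE 0.087). The dimmest was lower on all Cy/+ arrays, at 176, 196 and 193 against 284, 280.3 and 207, a log2 difference of -0.44 (SE 0.14). Averaged over the 4 probe sets, the log2 difference of Clcn3 was 0.21.

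The CLIC proteins are small proteins that exist in soluble and membrane-bound forms and were named as intracellular chloride channels. Clic1 had signals of 2626, 2796 and 2686 on the +/+ arrays and of 5780, 4897 and 5131 on the Cy/+ arrays. All Cy/+ arrays lay above, and Cy/+ 1, the lowest Cy/+ array for Slc12a2, Ano1, Gabrp and Clcn3, was the highest here. The means were 2703 ± 86.2 and 5269 ± 457 (SD, n = 3), a log2 difference of 0.96 (SE 0.085), or -0.022 when scaled to the hybridization controls.

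Clic4 gave 2 different pictures, depending on the probe set. The brightest, which stands for the gene, gave 6166, 5967 and 6141 in +/+ and 6972, 4929 and 4889 in Cy/+. The genotypes overlapped because Cy/+ 1 was above and the other Cy/+ arrays below every +/+ array, and the log2 difference was -0.14 (SE 0.14), or 0.093 after quantile normalization. The other 3 probe sets were lower on every Cy/+ array. The first of them gave 2618, 2210 and 1991 in +/+ and 792, 568 and 644 in Cy/+, a log2 difference of -1.77 (SE 0.15). The second gave 1747, 1463 and 1272 against 289, 198 and 261, a log2 difference of -2.59 (SE 0.17). The third gave 1391, 1017 and 945 against 187, 201 and 171, a log2 difference of -2.57 (SE 0.16). The +/+ signals of these 3 probe sets were thus 3.41, 6.02 and 5.92 times those of Cy/+ (ratios of geometric means), while the brightest probe set of the same gene overlapped. Which transcripts each probe set binds was not analysed here.

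Clic5, known from the apical cytoskeleton of podocytes and other cells, was dim in both genotypes, at 85.0, 83.4 and 94.0 in +/+ and 90.6, 78.4 and 61.9 in Cy/+. The arrays overlapped, the Cy/+ mean was under the testing signal, and the log2 difference was -0.20 (SE 0.15). With Cy/+ 1 left out, the remaining Cy/+ arrays of both Clic4 and Clic5 lay below every +/+ array, so that 3 of the 8 genes were lower on every Cy/+ array instead of 1.

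**Figure D2:**
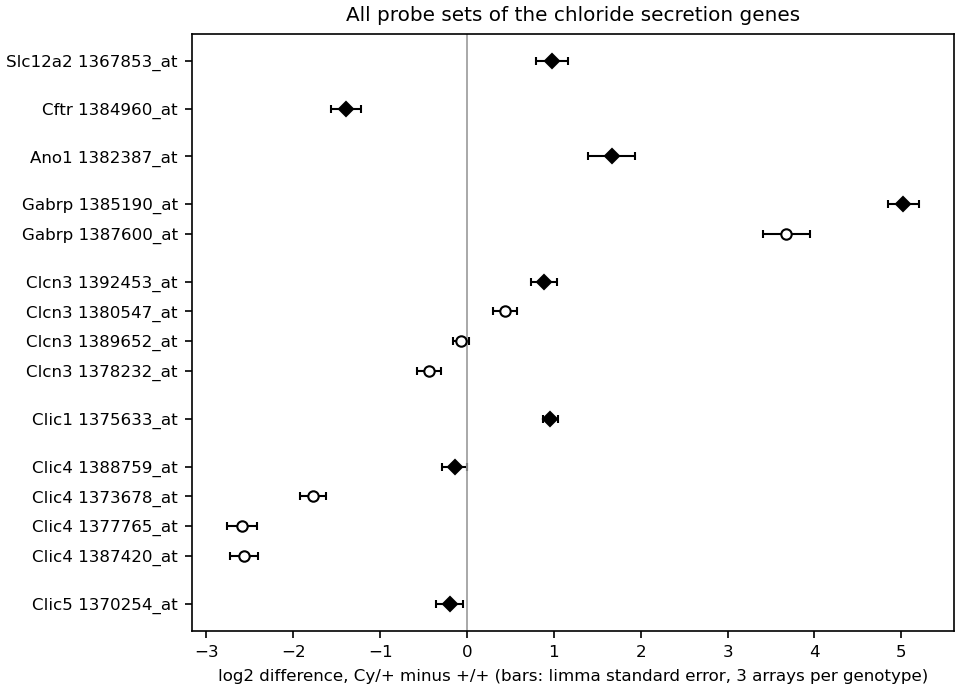
Log2 difference in signal (Cy/+ minus +/+, 3 arrays each) of all 15 probe sets of the 8 genes, with limma's standard error. Filled diamonds are the brightest probe set of a gene and open circles the others. The 2 Gabrp probe sets lie at 5.03 and 3.68, the 4 Clcn3 probe sets run from -0.44 to 0.88, and 3 of the 4 Clic4 probe sets lie between -2.59 and -1.77. Scaling to the hybridization controls would move every point left by the same amount (a shift of -0.98).

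Over all 15 probe sets, each of which was measurable, 7 were higher on every Cy/+ array, 5 were lower on every Cy/+ array and 3 overlapped. The Cy/+ arrays varied more among themselves than the +/+ arrays. The median SD of the log2 signal over the 8 genes was 0.30 in Cy/+ and 0.075 in +/+, against 0.16 and 0.083 over all genes. The SD was larger in Cy/+ for 7 of the 8 genes and for 78.2% of all genes. The exception was Cftr.

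The variation among Cy/+ arrays had a recurring order. Slc12a2, Ano1, Gabrp and Clcn3 were each lowest on Cy/+ 1, intermediate on Cy/+ 3 and highest on Cy/+ 2. For Slc12a2 the signals on Cy/+ 3 (1512) and Cy/+ 2 (1520) were almost equal. The summed signal of 7 markers of collecting duct principal cells had the same order, at 5222 on Cy/+ 1, 12430 on Cy/+ 3 and 18514 on Cy/+ 2, against 5549 to 7017 on the +/+ arrays. On Cy/+ 1 that sum was below every +/+ array. Aqp2 had the largest mean signals of the 7 markers (3116 in +/+ and 6579 in Cy/+), so the sum depends most on it. Gabrp was at 2902, Ano1 at 147 and Slc12a2 at 941 on Cy/+ 1, all above every +/+ array. When scaled to the hybridization controls, Ano1 and Slc12a2 no longer lay above on every Cy/+ array. The summed signal of intercalated cell markers also followed the order, at 3440, 5849 and 7829, against 5969 to 6158 in +/+. Cftr, Clic1, Clic4 and Clic5 were highest on Cy/+ 1, with Cftr under the testing signal on every Cy/+ array. So were the summed fibroblast markers (37647, against 19424 on Cy/+ 2 and 20534 on Cy/+ 3) and the summed macrophage markers (7327, against 4714 and 3928). The sums of proximal tubule (23128, against 7593 and 18340), podocyte (4876, against 4485 and 3857) and endothelial markers (5313, against 4362 and 3953) were highest on Cy/+ 1 as well. The thick limb and distal tubule sum was 22517, 23286 and 35928 on Cy/+ 1, 2 and 3, highest on Cy/+ 3. The lymphocyte sum was 1790, 1862 and 1080, lowest on Cy/+ 3. The part of these cell types in the signals of the 8 genes was not tested.

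**Figure D3:**
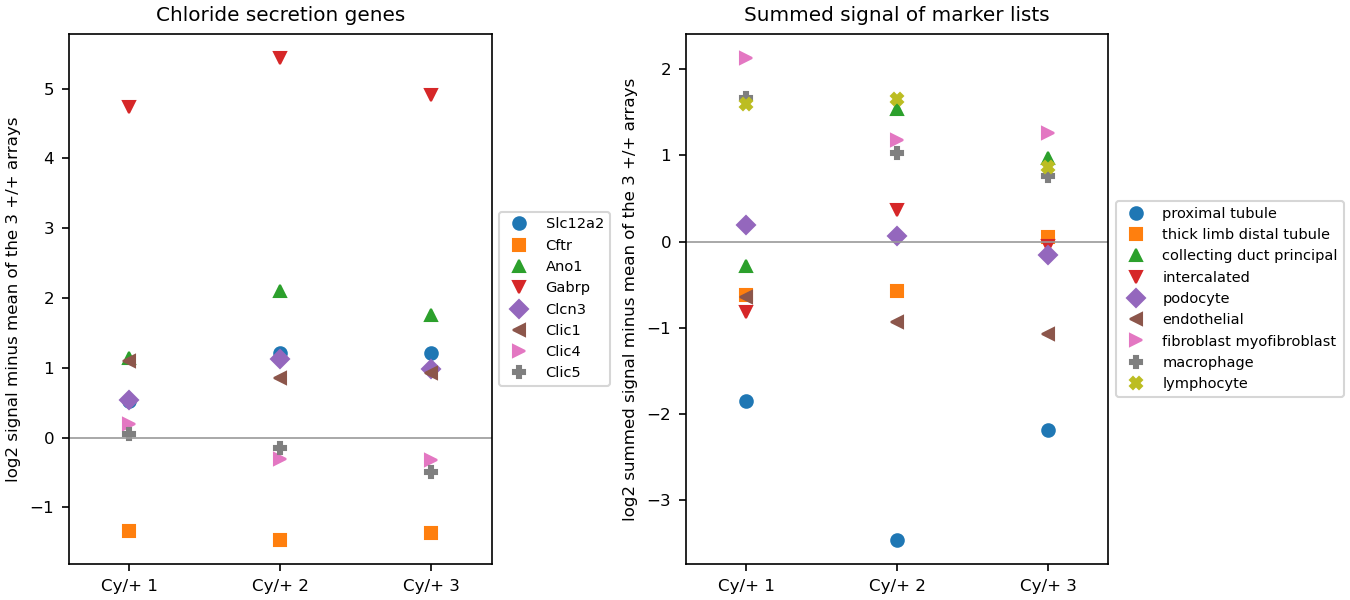
Left, log2 signal of each of the 8 genes on the 3 Cy/+ arrays, relative to its mean over the 3 +/+ arrays; right, log2 of the summed signal of 9 lists of cell type markers on the same arrays, relative to the mean summed signal of the 3 +/+ arrays. Slc12a2, Ano1, Gabrp, Clcn3 and the collecting duct principal cell and intercalated cell lists are lowest on Cy/+ 1 and highest on Cy/+ 2. Cftr, Clic1, Clic4, Clic5 and the fibroblast, macrophage, proximal tubule, podocyte and endothelial lists are highest on Cy/+ 1. The thick limb and distal tubule list is highest and the lymphocyte list lowest on Cy/+ 3. Scaling to the hybridization controls would shift all points down.

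Kidney markers were present on all arrays and differed between the genotypes. All 11 proximal tubule markers were lower in Cy/+ by limma, with summed signals of 7593 to 23128 against 80174 to 88134 in +/+. Of the collecting duct principal cell markers 1 of 7 was higher and none lower, of the intercalated cell markers none of 6 was higher and 1 lower, and of the thick limb and distal tubule markers 3 of 8 were higher and 2 lower. Podocyte markers split into 3 higher and 4 lower of 7, with sums of 3857 to 4876 in Cy/+ and 4027 to 4480 in +/+. Lower were Podxl, Nphs1, Wt1 and Ptpro (log2 differences -1.08, -1.30, -1.34 and -1.38). Higher were Synpo, Cdkn1c and Plce1 (0.56, 0.76 and 0.93). Synpo had the largest mean signals of the 7, so the sums depend most on it. Higher were 6 of 8 fibroblast, 7 of 8 macrophage and 4 of 5 lymphocyte markers, and 6 of 8 endothelial markers were lower. Over all genes, 37.4% were higher and 29.3% lower, and the thick limb and distal tubule counts are near these shares. Lymphocyte sums were 1080 to 1862 in Cy/+ and 560 to 637 in +/+, and endothelial sums were 3953 to 5313 and 7971 to 8660.

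The genes most like each of the 8 were found by the root mean square difference between log2 signals over the 6 arrays. Each signal was taken relative to the gene's own +/+ mean. The measure takes in the genotype difference known when the 8 genes were chosen, so it also ranks genes by a difference of like size. Gabrp was closest to Lcn2 (difference 0.28, 34.6-fold higher in Cy/+) and to Eppk1 (0.384, 27.8-fold higher). Lcn2 encodes the secreted tubular injury marker lipocalin 2. For Gabrp the SD of the log2 signal was 0.10 in +/+ and 0.37 in Cy/+. For Lcn2 it was 0.31 and 0.11, and for Eppk1 0.13 and 0.24. Clcn3 was closest to Tfcp2l1, a transcription factor of the collecting duct and distal tubule (0.0315), and to Oxr1 (0.044). Slc12a2 was closest to C1h19orf33 (0.0555) and Nup214 (0.0716), Ano1 to Tpd52l1 (0.0993) and Sned1 (0.142), and Cftr to Ttc32 (0.0942) and Aldh1b1 (0.109). Clic1 was closest to Arid1b (0.0468) and Dock6 (0.0475), Clic4 to Igfbp7 (0.0297) and Ttc14 (0.0384), and Clic5 to Arid3b (0.0388) and Igf2 (0.0525). Gabrp was matched least closely of the 8, by 0.28 or more. It also had the largest genotype difference, so nothing is read from this.

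To place the 8 genes among others of the same pathway, 181 further genes were listed in 7 groups, of which 112 were measurable. By limma 39 of the 112 were higher and 40 lower in Cy/+, and 33 did not pass. These are 34.8% and 35.7%, beside the 37.4% and 29.3% of all genes. Their median log2 difference was 0.10, against 0.090 over all genes. The p-values given in the following are limma's, Benjamini-Hochberg adjusted over all tested probe sets.

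Other chloride channels were divided, with 9 of 23 higher, 10 lower and a median log2 difference of -0.18. Among subunits of the volume-regulated anion channel, which cells open on swelling, Lrrc8c rose 4.39-fold (log2 difference 2.13, SE 0.16, adjusted p = 5.6e-05) and Lrrc8d fell (-1.40). This Lrrc8c probe set can bind several transcripts, and without such probe sets Lrrc8c was at 0.52 and did not pass. Lrrc8e (0.82) and Ano10 (0.49), a relative of Ano1, passed as higher but turn negative when scaled to the hybridization controls, and Clic2 (1.01) also passed but is at 0.024 with that scaling and does not pass. The measurable vesicular relatives of Clcn3 were lower, namely Clcn4 at -3.03 (SE 0.16, adjusted p = 2.47e-05), Clcn6 at -1.57 and the lysosomal Clcn7 at -1.01. The listed relative Clcn5 was not measurable, with mean signals of 42.2 in +/+ and 22.5 in Cy/+.

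Of 13 anion exchangers and cation-chloride cotransporters related to Slc12a2, 7 were higher and 5 lower (median 0.29). Slc4a3, a chloride-bicarbonate exchanger, rose by a log2 difference of 1.26 (SE 0.17, adjusted p = 0.000553), and Slc4a7, a sodium-bicarbonate cotransporter, by 1.14. When scaled to the hybridization controls they were at 0.27 and 0.16 and did not pass. The potassium-chloride cotransporter Slc12a4 (0.58) and Slc12a9 (0.50) passed as higher and turn negative when scaled to the hybridization controls. Slc12a8 fell by 2.68 on the log2 scale (SE 0.38, adjusted p = 7e-04). Slc26a4, the pendrin of intercalated cells, was at -1.13, the proximal sulfate transporter Slc26a1 at -2.00 and the proximal sodium-bicarbonate cotransporter Slc4a4 at -2.23, all past the threshold.

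Of 17 subunits of the sodium pump, its FXYD regulators and potassium channels, 6 were higher and 4 lower (median 0.16). The potassium channel Kcnk6 rose 3.88-fold by its brightest probe set (log2 difference 1.96, SE 0.15, adjusted p = 6.18e-05). With its probe sets averaged, the log2 difference of Kcnk6 was 0.97. The pump regulator Fxyd5 was higher by 1.60, or by 0.62 without passing when scaled to the hybridization controls. Kcnk5 (0.62) and the pump beta subunit Atp1b3 (0.62) passed as higher and turn negative when scaled to the hybridization controls. Kcnj15 fell by 3.92 on the log2 scale (SE 0.34, adjusted p = 9.52e-05), and Kcne1 (-1.31, with a Cy/+ mean under the testing signal), Kcnj16 (-1.21) and Fxyd2 (-0.85), the pump's gamma subunit, fell too. Atp1b1, the main beta subunit in kidney, had a log2 difference of 0.0071 and did not pass. Chosen after its values were seen, Kcnn4, the calcium-activated potassium channel, was not measurable by the rule, with a mean log2 signal under the threshold in both genotypes, and had mean signals of 28.2 ± 5.78 in +/+ and 77.9 ± 35.8 in Cy/+ (SD, n = 3).

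Of 33 regulators of CFTR and NKCC1, 9 were higher and 13 lower (median -0.013). The PDZ scaffolds Nherf4 (-3.15, SE 0.26, adjusted p = 7.38e-05) and Pdzk1 (-2.35) fell, as did Gopc (-0.98), which binds CFTR and routes it to lysosomes. Regulatory subunits of protein kinase A differed in sign, with Prkar2b at 1.02, Prkar1a at 0.76 and Prkar2a at -0.70. The phosphodiesterases Pde4a (0.99) and Pde4c (0.97), which break down cAMP, were higher. With scaling to the hybridization controls, Prkar1a and Pde4c turn negative, and Prkar2b (0.041) and Pde4a (0.0037) do not pass. Of the kinases that phosphorylate NKCC1, Oxsr1 was at 0.48 and passed (adjusted p = 0.00605), but it turns negative with that scaling, and Stk39 was at 0.48 and did not pass (adjusted p = 0.166).

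Of 16 genes of calcium and purinergic signalling, which open ANO1, 8 were higher and 4 lower (median 0.39). P2ry2, a receptor for extracellular ATP, rose 5.76-fold (log2 difference 2.53, SE 0.13, adjusted p = 2.46e-05), from 137 ± 18.9 in +/+ to 791 ± 89.2 in Cy/+ (SD, n = 3). Itpr3, which releases calcium from the endoplasmic reticulum, rose 4.83-fold (log2 difference 2.27, SE 0.14, adjusted p = 3.36e-05), and its relative Itpr1 fell by 0.30. Plcd1, a phospholipase C, was higher by 1.03, and calmodulin Calm2 by 0.48. When scaled to the hybridization controls Plcd1 was at 0.049 and did not pass, and Calm2 turns negative. Plcb1 (-0.94), the AMP-hydrolysing ectoenzyme Nt5e (-1.44) and the ATP-gated channel P2rx4 (-0.27) were lower. P2rx4 did not pass without Cy/+ 3 (-0.24) or without any 1 of the +/+ arrays (-0.25, -0.29 and -0.27 without +/+ 1, 2 and 3).

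Of 10 measurable genes of tubular salt absorption, the opposite transport, none was higher and 4 were lower (median -0.20). Slc9a3, the proximal sodium-proton exchanger, fell by 2.62 (SE 0.44, adjusted p = 0.00157), and Prss8 (-1.47), a protease that activates the sodium channel ENaC, and Kcnj1 (-1.05), the potassium channel ROMK, fell too. Slc4a4 is counted here as well. Kcnj1 did not pass when any single array except Cy/+ 3 was left out, and ranged from -1.13 without +/+ 1 to -0.65 without Cy/+ 1. It also did not pass after quantile normalization (-1.03), with array quality weights (-0.63) or by the methods' t-test with Benjamini-Hochberg adjustment. NKCC2 (Slc12a1, 0.24), the thiazide-sensitive cotransporter (Slc12a3, 0.14) and the ENaC subunits Scnn1a (-0.051), Scnn1b (0.32) and Scnn1g (0.25) did not pass.

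Of the listed genes, 46 had a probe set that was not measurable, and 23 had none that named them alone. Among the 46, 5 had a mean log2 signal over the testing threshold in 1 genotype, namely Ano2, Pde1a and Entpd1 in +/+ and Clca2 and Kcnma1 in Cy/+.

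**Figure D4:**
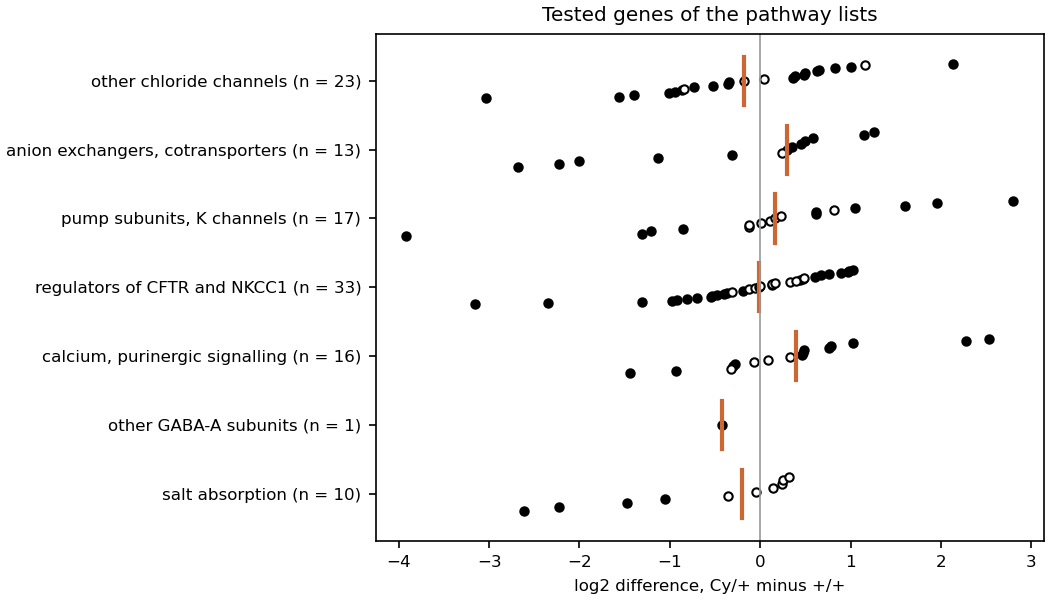
Log2 difference in signal (Cy/+ minus +/+, 3 arrays each) of the measurable genes in 7 lists of the chloride pathway. Filled points passed limma's threshold and open points did not, vertical bars are list medians, n is the number of measurable genes, and height within a list only separates the points. Genes lie on both sides of 0 in most lists, with medians from -0.43 for the 1 measurable GABA-A subunit to 0.39 for calcium and purinergic signalling, and scaling to the hybridization controls would move every point by -0.98.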

How the data were processed

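Total RNA was extracted from kidney tissue (3 Cy/+ and 3 +/+ samples), and biotin-labelled cRNA from 5 μg was hybridised to Affymetrix rat arrays, which the authors read with GCOS 1.2. The submitters' notes name MAS5, and 1 linear signal intensity per probe set was deposited, from 10.65 to 32240. Their scaling between arrays is not given in the sources used here. No column was left without a sample (0).

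The log2 of each value was used, with no pseudocount. Of 31099 probe sets, 57 controls were left out, and 18625 whose mean log2 signal reached the 40th percentile (6.28) were tested. Symbols came from the platform annotation (1 symbol for 20832 probe sets, several for 436, none for 9831), and 20764 were updated through Entrez IDs with a RefSeq table of GRCr8. A gene was represented by its brightest probe set with 1 symbol. The genotype comparison used limma 3.58.1 under R 4.3.3 (lmFit, eBayes with an intensity trend, no covariate), with Benjamini-Hochberg adjustment over all tested probe sets and a threshold of 0.05. A difference is Cy/+ minus +/+. The fit was tested on simulated data. The number of arrays limits the precision.

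The 8 genes and all lists were chosen with earlier results of these data known. Named are the 8 genes with all their probe sets, up to 4 genes each way per pathway list with the smallest adjusted p, and the 2 genes of most like pattern for each of the 8. Oxsr1 and the named pathway genes that did not pass were chosen after their values were seen. Alternatives to the normalization were quantile normalization, median centring and scaling to hybridization controls. For low signals they were a floor of 32, a pseudocount of 16, dropping the filter or raising it to the 60th percentile. For the test they were eBayes without the trend, array weights, Student's t-test (the methods' test) and a replicate block. Averaging the probe sets of each gene, excluding probe sets with suffixes for several transcripts, and omitting single arrays were also tried.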

Additional observations from a re-analysis of the deposited data

How the results depend on the processing

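Scaling to the hybridization controls changed most values, since it lowers every log2 difference by the same amount. The log2 differences became -0.0030 for Slc12a2, -0.097 for Clcn3 and -0.022 for Clic1, which reversed, and -2.37 for Cftr, 0.68 for Ano1, 4.04 for Gabrp, -1.12 for Clic4 and -1.18 for Clic5. Of the 8 genes, 1 then lay above and 3 below on every Cy/+ array. Of the pathway genes 5 were higher and 69 lower, against 39 and 40. Also reversed were Lrrc8e (-0.16), Ano10 (-0.49), Slc12a9 (-0.48), Slc12a4 (-0.40), Kcnk5 (-0.36), Atp1b3 (-0.37), Prkar1a (-0.23), Pde4c (-0.013) and Calm2 (-0.50). With all probe sets of each gene averaged, Gabrp was at 4.35, Clcn3 at 0.21 and Clic4 at -1.77. Of the 8 genes, 4 then lay above and 2 below on every Cy/+ array. After quantile normalization Clic1 was at 1.16 and Clic4 at 0.093, and the cause was not tested. Leaving out 1 array gave 1 to 3 genes below on every Cy/+ array, with 3 without Cy/+ 1. The replicate numbers did not pair the samples: same-numbered arrays had correlations of deviations of 0.15, -0.11 and -0.15, and 2 of 6 samples correlated best with their own number. With a replicate block 39 pathway genes were higher and 37 lower, and of the named genes P2rx4 did not pass. The methods' t-test gave 35 and 33 after Benjamini-Hochberg adjustment, and no filter gave 52 lower. When scaled to the hybridization controls, Clic2, Slc4a3, Slc4a7, Fxyd5, Prkar2b, Pde4a and Plcd1 remained above 0 and did not pass. Of the 44 named pathway genes, 25 kept their direction and call under every alternative that tested them. Like that of Lrrc8c, the probe sets of Gabrd, Prkar2b, Pde4a, P2rx4 and Kcnj1 can bind several transcripts. Signals near the testing signal, such as those of Cftr, Ano1 and Clic5, limit what can be said of their size.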
